A study of Mus musculus with 474 samples.

Results

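Skeletal muscle libraries rich and poor in the slow-fibre myosin RNA Myh7 were compared within a population of genetically mixed mice. The libraries were chosen by Myh7 itself. Within each of 10 groups formed by sex and generation, libraries were ranked by Myh7 on the deposited variance-stabilised scale, and the 5 highest and the 5 lowest were taken. This gave 50 high and 50 low libraries, together 100 of a series with 45 to 50 libraries in each of the 10 groups, and the rest are called the middle libraries. Every animal was a Diversity Outbred mouse, a stock descended from 8 inbred founder strains, and was fed a high-fat, high-sugar diet (45percent fat per the labels) from 4 weeks of age. Gastrocnemius was collected at 22 weeks according to the methods of the study. The groups were females and males of generations 17, 18, 19, 21 and 23 as numbered in the labels, with 1 library per animal. No animal was an untreated or chow-fed control, and each carried its own mixture of founder alleles, so that high and low libraries differed in genotype as well.

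Limb muscle fibres of mice are of a slow type and of faster types, each built from its own set of sarcomere proteins. Slow, or type I, fibres use the myosin heavy chain encoded by Myh7 together with slow forms of troponin, tropomyosin, myosin light chains and the calcium pump, contract slowly and resist fatigue. Fast fibres use Myh2 (type IIA), Myh1 (type IIX) or Myh4 (type IIB), and in that order depend increasingly on glycolysis. The mouse gastrocnemius is mostly fast. In bulk tissue, more slow fibres and more slow RNA per fibre cannot be told apart.

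Myh7 (ENSMUSG00000053093, chr14:54970684-54994626, GRCm38) chose the libraries, and its values are a description. In CPM (counts relative to the scaled size of the library), its lowest, median and highest values were 1295, 2038 and 4428 in the high libraries, and 206.5, 641.3 and 1052 in the low ones. Since females had more Myh7 than males, the high males (median 1534 CPM) and the low females (median 880.0 CPM) lay nearer to each other than the same tails within a sex. On the deposited scale the high libraries averaged 17.28 ± 0.43 (SD, n = 50) and the low 15.66 ± 0.53 (SD, n = 50), with 16.50 ± 0.43 (SD) in the middle. The step across the upper limit, from the last library taken to the first left out, was 0.0105 (females of generation 18) to 0.0995 (males of generation 17). At the lower limit it was 0.0074 (females of generation 21) to 0.105 (males of generation 18). The limits therefore divided a continuous range. Myh6, the cardiac myosin next to Myh7 with near-identical sequence, and Mhrt, an RNA that overlaps Myh7, were left out of all tests for that reason.

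**Figure D1:**
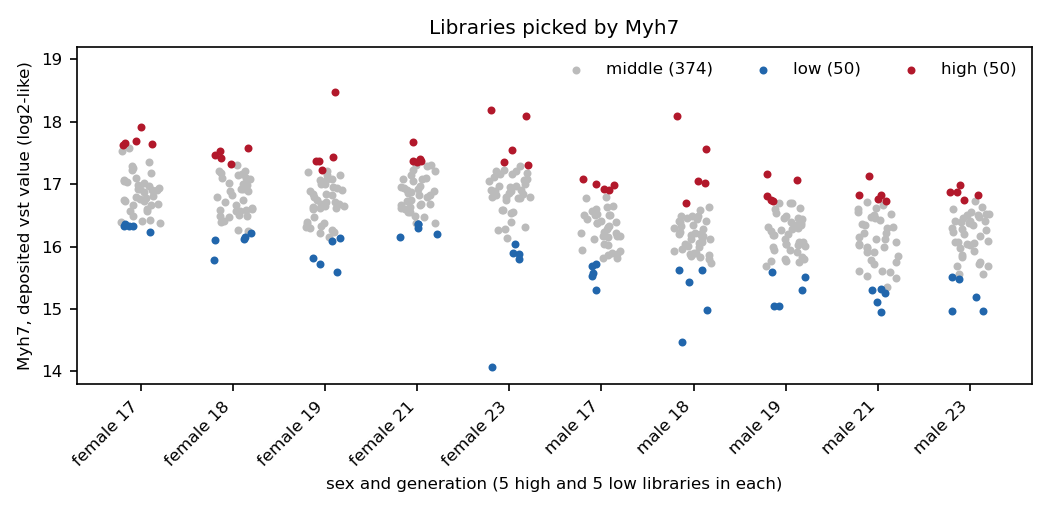
Myh7 on the deposited variance-stabilised scale (y axis) in each library, by sex and generation (x axis), with the 5 high libraries of each group in red, the 5 low in blue and the others in grey. Values run from 14.07 to 18.47, with the lowest library among females of generation 23 and the highest among females of generation 19.

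Total counts were 51.3 M to 128.3 M (M, mega) in the high and 52.1 M to 165.7 M in the low libraries. By Xist and Y-linked RNA, 5 libraries of the series went against their labelled sex. Of these, 2 were in the high set (1 labelled female in generation 17 and 1 labelled male in generation 19) and 0 in the low set, and results without the 5 are given below. The libraries were divided by library number into 5 runs. The high set held 7, 11, 8, 10 and 14 libraries of these runs, and the low set 12, 15, 9, 3 and 11. A gap in the numbers separates only the first run from the next. The other limits fall between consecutive numbers, and whether the runs match batches of preparation was not tested. The share of counts in the 10 most abundant genes was 26.8% ± 1.4 in the high and 27.5% ± 1.4 in the low libraries (SD, n = 50 each, within-group permutation test with 100000 resamples, two-sided, p = 0.00947, adjusted p = 0.0331 over 7 library measures). The dependence of a library's values on the GC content of genes also differed, by a log2 slope per 10 points of GC of 0.0423 ± 0.0728 against -0.0308 ± 0.165 (same permutation test, adjusted p = 0.0331). By medians these differences were -0.437 percentage points (adjusted p = 0.221) and 0.0252 (adjusted p = 0.253), and both calls were lost. Total count did not differ past the threshold (adjusted p = 0.501), nor did the mitochondrial share, 10.1% against 10.97% (adjusted p = 0.0932).

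Of 16757 genes tested, 761 passed an adjusted p of 0.05 between high and low libraries (4.54%), of which 48.8% were higher in the high libraries (2.21% of genes tested) and 390 genes were lower (2.33%). The rises were the larger changes. Of the 96 genes called that differed by at least 1.5-fold (0.573%), 80 were higher and 16 lower, and the median call was 1.23-fold for the rises and 0.890-fold for the falls. The share of genes called depended on single groups, being 1.81% without females of generation 23, 2.30% without females of generation 21, 2.92% without males of generation 17 and 3.002% without males of generation 23. It was 2.82% with the run of library numbers as a covariate and 1.74% with the GC and length slopes of each library as covariates. Scaling by total count alone put 79.7% of calls in the higher direction, against 48.8% in the main comparison. Without the 5 libraries in doubt, 4.02% of genes were called, 2.08% higher and 1.95% lower.

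Troponins of the slow thin filament gave the largest differences among the named genes. Tnni1, the slow inhibitory troponin (ENSMUSG00000026418, chr1:135779434-135810989), ran from 90.1 through a median of 150.2 to 343.996 CPM in the high libraries and from 19.9 through 49.4 to 102.5 CPM in the low. The sets overlapped in a few libraries over the whole series, and in each of the 10 groups all 5 high libraries lay above all 5 low ones. The log2 difference was 1.604 (SE 0.08, 3.04-fold, adjusted p = 1.53e-32). Tnnt1, the slow troponin that binds tropomyosin (ENSMUSG00000064179, chr7:4504570-4516382), was 256.1 to 870.0 CPM (median 385.2) in the high and 50.9 to 255.014 CPM (median 145.9) in the low libraries. Its 50 high values all exceeded its 50 low values, with a log2 difference of 1.45 (SE 0.07, adjusted p = 2.92e-31). Tnnc1, the calcium-binding troponin of slow and cardiac muscle (ENSMUSG00000091898, chr14:31208312-31211729), separated the sets in the same way, at 139.6 to 407.9 CPM (median 203.4) against 20.4 to 131.8 CPM (median 75.9). Its log2 difference was 1.504 (SE 0.07, adjusted p = 1.82e-32). Tpm3, the slow tropomyosin (ENSMUSG00000027940, chr3:90072649-90100902), was 413.4 ± 99.4 against 168.7 ± 55.8 CPM (SD, n = 50 each, log2 1.32, SE 0.07, adjusted p = 2e-28). Tnnc1 overlaps Nisch, and its count is uncertain where strand was not used. Tnni1 and Tnnt1 are the slow-fibre markers against which the names rich and poor were checked, and both were higher in the high libraries.

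Complete separation of 5 high from 5 low libraries in at least 8 of the 10 groups occurred for 9 genes of all tested (0.0537%). These were Tnni1, Tnnc1, Tnnt1, Myl2, Tpm3, Atp2a2, Myl3, Myh7b and 1 further gene, Xpo4 on chromosome 14, which was noticed after its values were seen.

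**Figure D2:**
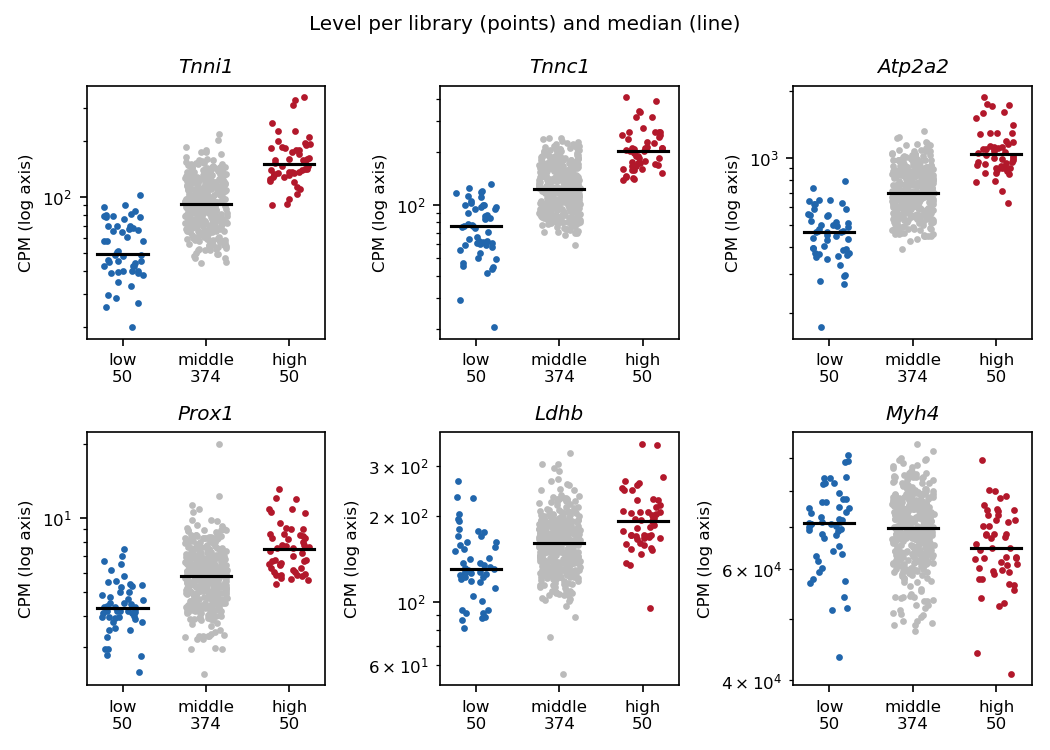
CPM on a log axis for 6 genes in low (blue, 50), middle (grey) and high (red, 50) libraries, with a line at the median. Tnni1, Tnnc1 and Atp2a2 rise stepwise, with medians of 150.2, 203.4 and 1043 CPM in the high libraries against 49.4, 75.9 and 466.4 in the low. Prox1 and Ldhb overlap more, and Myh4, the fast myosin, overlaps throughout.

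The thick-filament genes followed. Myl2, the slow regulatory light chain (ENSMUSG00000013936, chr5:122100951-122113472), was 411.3 ± 128 against 164.1 ± 50.9 CPM (SD, n = 50 each, log2 1.34, SE 0.07, adjusted p = 1.95e-29). Myl3, the slow essential light chain (ENSMUSG00000059741, chr9:110741861-110769798), was 303.7 ± 71.3 against 129.0 ± 33.4 CPM (log2 1.24, SE 0.06, adjusted p = 1.37e-31). Myh7b, a further slow and cardiac myosin gene, was rarer at 15.1 ± 4.53 against 6.53 ± 2.27 CPM and changed by a like amount (log2 1.24, SE 0.08, adjusted p = 2.06e-24). Myl6b, a light chain of slow muscle, was at 10.6 ± 4.56 against 5.26 ± 1.57 CPM (log2 0.99, SE 0.09, adjusted p = 9.42e-16). Of the 11 slow contractile genes tested, 11 were called higher, where 2.21% of all genes tested were, with a median log2 of 1.24 against -0.01 over all genes tested. The smallest changes in the list were those of Mybpc1 and Actn2, and levels per fibre type were not measured. Mybpc1, the slow form of myosin-binding protein C, was at 2561 ± 679.1 against 2146 ± 461.02 CPM (log2 0.25, SE 0.05, adjusted p = 0.00197), and Actn2, the Z-disc alpha-actinin of all fibre types, at 1384 ± 386.7 against 1052 ± 208.2 CPM (log2 0.40, SE 0.06, adjusted p = 5.47e-06). Myoz2, the slow-fibre Z-disc protein calsarcin-1, lay between them and the myosin genes (log2 0.69, SE 0.07, adjusted p = 3.99e-12). Myl2, Myl3 and Myh7b each overlap a neighbouring gene in the annotation, as do other genes below, among them Atp2a2, Casq2, Casq1, Pln, Myh1, Myh2, Sox6, Tbx15, Ppargc1a, Fabp3, Gpd1 and Mb, so that their counts carry the same uncertainty.

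The stretches before the start sites of slow genes are shown because these genes moved together. For Tnni1, Tnnc1, Myl3 and Myoz2, the 250 bases before a RefSeq start site (GRCm38.p6) are given 5′ to 3′ on the strand of the gene. Capitals mark the E-box CANNTG (bound by the MyoD family), the MCAT element CATTCC (bound by TEAD factors) and the MEF2 motif, searched on both strands.
Tnni1 (chr1:135799171-135799420, plus strand): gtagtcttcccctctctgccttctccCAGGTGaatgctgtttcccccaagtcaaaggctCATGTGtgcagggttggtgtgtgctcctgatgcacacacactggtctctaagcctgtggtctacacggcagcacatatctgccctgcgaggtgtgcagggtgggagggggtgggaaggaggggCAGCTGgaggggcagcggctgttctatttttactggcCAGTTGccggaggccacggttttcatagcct
Tnnc1 (chr14:31208062-31208311, plus strand): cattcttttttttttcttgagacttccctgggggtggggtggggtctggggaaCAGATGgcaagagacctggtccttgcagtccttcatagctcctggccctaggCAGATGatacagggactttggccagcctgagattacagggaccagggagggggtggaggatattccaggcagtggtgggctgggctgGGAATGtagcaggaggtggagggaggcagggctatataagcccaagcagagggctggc
Myl3 (chr9:110763428-110763677, plus strand): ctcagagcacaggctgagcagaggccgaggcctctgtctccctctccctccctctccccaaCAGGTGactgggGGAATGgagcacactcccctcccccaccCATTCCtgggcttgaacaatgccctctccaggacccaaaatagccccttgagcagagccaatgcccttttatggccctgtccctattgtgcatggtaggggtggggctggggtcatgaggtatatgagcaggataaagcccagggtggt
Myoz2 (chr3:123034988-123035237, minus strand): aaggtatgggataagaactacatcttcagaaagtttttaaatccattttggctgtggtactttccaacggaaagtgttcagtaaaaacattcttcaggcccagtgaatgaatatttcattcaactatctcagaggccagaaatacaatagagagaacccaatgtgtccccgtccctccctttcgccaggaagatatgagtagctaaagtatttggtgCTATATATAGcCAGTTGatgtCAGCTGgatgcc
The start site used for Tnni1 and that for Myl3 lie inside the GENCODE gene, which begins further upstream. That used for Myl2, whose promoter is counted but not shown, lies 7762 bases upstream of the GENCODE gene. An E-box was present in 11 of the 11 slow contractile promoters, in 43 of 54 promoters of genes raised at least 1.5-fold (79.6%) and in 58.1% of the 11782 promoters of tested genes. The MEF2 motif was in 1 of the 11, in 9.26% of the 54 and in 1.90% of all. The MCAT element was in 2 of the 11, in 11.1% of the 54 and in 10.8% of all. Mean E-box counts were 1.82 per promoter in the slow contractile list and 0.912 over all genes tested. A match of letters does not show that a factor bound there.

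Myh7 and Myh7b also carry microRNAs. The mature sequences from RefSeq (GRCm38.p6) are shown because both host genes were in the slow group, with the seed, bases 2 to 8, in capitals.
mmu-miR-208b-3p: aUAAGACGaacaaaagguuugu
mmu-miR-499-5p: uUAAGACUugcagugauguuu
miR-208b-3p (chr14:54975710-54975731) lies inside Myh7 and miR-499-5p (chr2:155622893-155622913) inside Myh7b, each on the host's strand and outside every annotated exon of the host. The seeds share 6 of 7 bases. The libraries were made from polyadenylated RNA, and mature microRNAs were not measured.

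Calcium handling of the slow kind was also higher. Atp2a2, the slow and cardiac calcium pump SERCA2 (ENSMUSG00000029467, chr5:122453513-122502225), was 631.035 to 1878 CPM (median 1043) in the high and 173.6 to 793.5 CPM (median 466.4) in the low libraries. High and low were apart in all 10 groups, with a log2 difference of 1.25 (SE 0.06, adjusted p = 1.37e-31). Strit1 encodes DWORF, a micropeptide that activates SERCA, and was at 3.50 ± 1.297 against 1.36 ± 0.64 CPM (log2 1.39, SE 0.11, adjusted p = 4.52e-18). Sln, a peptide inhibitor of SERCA, was at 1.85 ± 2.55 against 0.821 ± 1.13 CPM (log2 1.08, SE 0.28, adjusted p = 0.0125). Its call was lost with the GC and length slopes as covariates (log2 0.934, adjusted p = 0.0729). Pln, phospholamban, varied from 1.05 to 77.6 CPM within the high set and was called by DESeq2 (adjusted p = 0.0341) but not by edgeR (log2 0.87, SE 0.31, adjusted p = 0.0938). Casq2, the cardiac and slow calsequestrin that stores calcium, was at 33.7 ± 13.0 against 20.1 ± 7.31 CPM (log2 0.75, SE 0.10, adjusted p = 2.3e-08). The list of slow calcium-handling genes held Atp2a2, Sln, Pln and Casq2 but not Strit1, and 3 of its 4 genes were called higher by edgeR and 4 by DESeq2, which called 5.81% of all genes tested. Of 12 fast calcium-handling genes 0 were called, with a median log2 of -0.06. Over all genes tested edgeR called 4.54%, so that 0 of 12 is near the background. The smallest adjusted p among those 12 was 0.0813 by edgeR, with 5 at an unadjusted p under 0.05 and 0 called by DESeq2. Casq1, the fast calsequestrin, and Pvalb, the calcium buffer parvalbumin, had log2 differences of -0.12 and -0.13 (edgeR adjusted p = 0.298 and 0.113).

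Differences in the fast sarcomere were small. Myh4, the most abundant of the 4 adult myosin heavy chains, was at 65507 ± 9293 CPM in the high and 70711 ± 10188 CPM in the low libraries (SD, n = 50 each), a difference that was not called (log2 -0.11, SE 0.04, adjusted p = 0.139). Myh1 was at 6451 ± 1427 against 6297 ± 1660 CPM (log2 0.03, SE 0.06, adjusted p = 0.841). Myh2, the type IIA myosin that neighbours the slow type in its oxidative metabolism, was higher at 4310 ± 1326 against 3618 ± 930 CPM (log2 0.26, SE 0.08, adjusted p = 0.0305). That call was lost with the run of library numbers as a covariate (log2 0.245, adjusted p = 0.0671) and with the GC and length slopes (log2 0.251, adjusted p = 0.0940). Myl1, the fast essential light chain, was lower at 5575 ± 865 against 6161 ± 774 CPM (log2 -0.14, SE 0.04, adjusted p = 0.0237). Of 13 fast contractile genes, 1 was called higher and 1 lower (2.21% and 2.33% over all genes tested), 10 had a negative difference (8737 of all 16757), and their median log2 was -0.08. Among the 13, 7 were at an unadjusted p under 0.05 (3040 of all 16757), and DESeq2 called 3 (5.81% over all genes tested). The smallest edgeR adjusted p among those not called was 0.0751.

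The share of each slow form within its pair shows how small the slow part remained. Per kilobase of exon, Myh7 made up 1.11% to 4.93% (median 1.74%) of the RNA of the 4 adult heavy chains in the high libraries and 0.164% to 1.21% (median 0.565%) in the low. Myh4 made up a median of 85.9% and 89.0%. The high libraries were therefore rich in slow-fibre RNA only relative to the others. Tnni1 was a median 1.66% of Tnni1 and Tnni2 against 0.633%, and Tnnt1 1.95% of Tnnt1 and Tnnt3 against 0.712%. Tnnc1 was 3.25% of the troponin C pair against 1.24%, and Atp2a2 was 1.74% of the pair with Atp2a1 against 0.761%. The light chains had larger shares, Myl3 at 4.95% of the pair with Myl1 against 2.05%, and Myl2 at 4.08% of the pair with Mylpf against 1.77%. Actn2 was a median 14.1% of Actn2 and Actn3 against 12.2%, and its ranges overlapped widely. These shares use the length of all annotated exons of a gene, which is longer than most single transcripts.

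**Figure D3:**
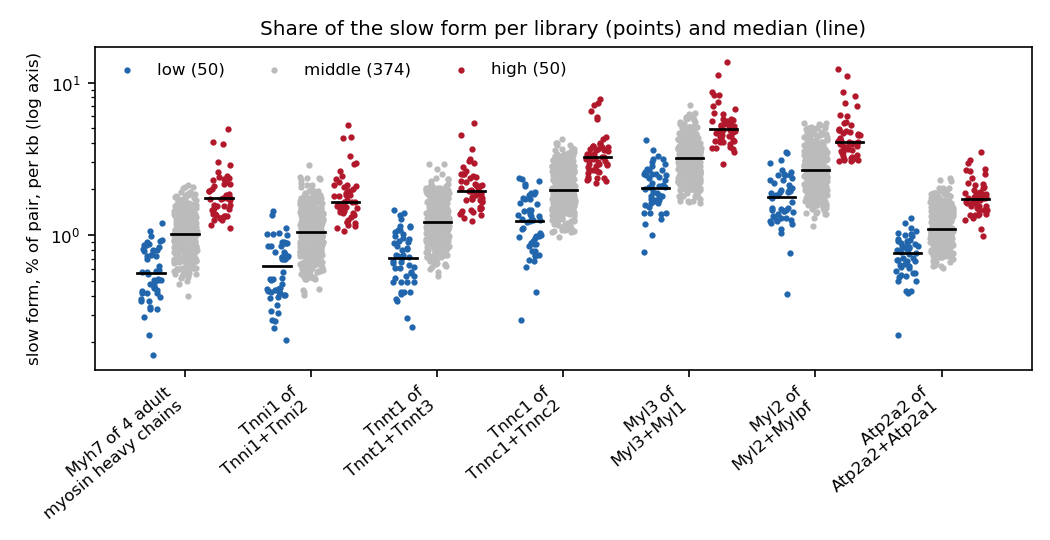
Share of the slow form in each library (points, log axis, in percent of the pair or of the 4 myosin heavy chains per kilobase of exon), for low, middle and high libraries, with a line at the median. Myh7 chose the libraries. The median share of Tnni1 goes from 0.633% in the low through 1.05% in the middle to 1.66% in the high libraries.

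The distances of the upper and the lower tail from the middle libraries varied between genes. For Tnni1 the high libraries were 0.75 above the middle and the low 0.85 below it (mean log2 CPM, averaged over groups), and for Atp2a2 these were 0.61 and 0.65. Rp1, a microtubule-associated gene known from photoreceptors, departed mainly in the high libraries (0.74 above against 0.29), at 2.77 ± 2.00 against 1.35 ± 0.68 CPM between the tails (log2 1.05, SE 0.15, adjusted p = 1.4e-07). Its highest high library stood at 15.05 CPM against a median of 2.47 in that set. Ndrg4, a gene of the NDRG family active in heart and nerve, likewise had a library at 32.0 CPM against a median of 3.38 (log2 1.13, SE 0.16, adjusted p = 1.53e-07).

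Among 34 regulators of fibre type, 5 were called higher and 1 lower, where 2.21% of all genes tested were higher and 2.33% lower, with a median log2 of 0.05. Prox1, a homeobox factor known to promote slow-fibre genes (ENSMUSG00000010175, chr1:190118035-190170714), was 5.38 to 13.1 CPM (median 7.46) in the high and 2.37 to 7.52 CPM (median 4.29) in the low libraries. It was higher in 10 of 10 groups and apart in 5 of them (log2 0.78, SE 0.07, adjusted p = 2.43e-16). Vgll2, a TEAD cofactor, was at 59.3 ± 17.6 against 42.7 ± 9.44 CPM (log2 0.46, SE 0.07, adjusted p = 3.68e-07). The oestrogen-related receptors Esrrb (log2 0.43, SE 0.09, adjusted p = 0.000557) and Esrrg (log2 0.31, SE 0.08, adjusted p = 0.00902) and the histone deacetylase Hdac5 (log2 0.14, SE 0.04, adjusted p = 0.0312) were also higher. Sox6, a repressor of slow genes in fast fibres, was lower at 164.0 ± 17.8 against 177.5 ± 23.05 CPM (log2 -0.11, SE 0.03, adjusted p = 0.0389), but it was called in only 7 of 25 alternatives. The call was lost with the run of library numbers as a covariate (adjusted p = 0.0734), with the GC and length slopes (0.308) and when libraries were ranked by Tnni1 and Tnnt1 (0.103). Ppargc1a, the coactivator of mitochondrial biogenesis, was at 74.0 ± 48.9 against 79.7 ± 45.3 CPM (log2 -0.12, SE 0.15, adjusted p = 0.738). Tbx15, a factor of fast glycolytic fibres, was at 191.9 ± 27.7 against 205.8 ± 29.7 CPM (log2 -0.10, SE 0.04, adjusted p = 0.130).

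Among metabolic genes, Ldhb and Idh2 were called higher. Ldhb, the lactate dehydrogenase subunit of heart and slow muscle (ENSMUSG00000030246, chr6:142490249-142507957), was 95.1 to 357.8 CPM (median 192.9) in the high and 80.8 to 265.6 CPM (median 130.2) in the low libraries. The sets overlapped over most of their range, although the mean was higher in 10 of 10 groups (log2 0.51, SE 0.07, adjusted p = 2.23e-07). Ldha, the fast muscle subunit, was not called (log2 -0.03, SE 0.04, adjusted p = 0.740). Idh2, the mitochondrial NADP-dependent isocitrate dehydrogenase, was at 274.9 ± 69.0 against 184.2 ± 45.6 CPM (log2 0.58, SE 0.07, adjusted p = 1.81e-10) and was the single gene called by edgeR among 18 of the tricarboxylic acid cycle, of which DESeq2 called 2 (4.54% and 5.81% over all genes tested). Ldhb was among 12 genes of lactate use and oxidative glucose, of which 2 were called higher and 1 lower (2.21% and 2.33% over all genes tested), with 7 positive and 5 negative differences and a median log2 of 0.04. The other calls were Mdh1 and Gpd2. Mdh1, the cytosolic malate dehydrogenase, was higher (log2 0.17, SE 0.04, adjusted p = 0.00533) and Gpd2, the mitochondrial glycerol-3-phosphate dehydrogenase, lower (log2 -0.17, SE 0.05, adjusted p = 0.0352).

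For fatty acid uptake and oxidation, 10 of 26 genes were called higher and 0 lower (2.21% and 2.33% over all genes tested), with a median log2 of 0.12. Fabp3, the fatty acid binding protein of heart and slow muscle, was at 437.2 ± 142 against 331.5 ± 114 CPM (log2 0.42, SE 0.09, adjusted p = 0.00231). Slc27a1, a fatty acid transporter, was at 78.0 ± 16.5 against 66.1 ± 12.6 CPM (log2 0.24, SE 0.06, adjusted p = 0.00562), and Cpt1b, which admits fatty acids to the mitochondrion, at 298.2 ± 35.98 against 266.98 ± 41.4 CPM (log2 0.16, SE 0.04, adjusted p = 0.00150). The other calls in this list had log2 differences between 0.11 and 0.20. Cd36, a fatty acid translocase, was not called (log2 0.12, SE 0.06, adjusted p = 0.234). It was called in 1 of 25 alternatives, with the GC and length slopes as covariates (log2 0.208, adjusted p = 0.0217). Of 22 genes of glycolysis and glycogen 20 had a negative difference, against 8737 of the 16757 genes tested, with a median log2 of -0.08. By edgeR 1 of them was called lower and 0 higher, and by DESeq2 3 were called, where it called 5.81% of all genes tested. Pygm, the muscle glycogen phosphorylase, and Gpd1, the cytosolic glycerol-phosphate dehydrogenase, had log2 differences of -0.07 and -0.08 (edgeR adjusted p = 0.332 and 0.523).

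Calls in the respiratory chain were no more frequent than over all genes tested, of which 2.21% were higher and 2.33% lower, with 8020 positive and 8737 negative differences. Of 69 nuclear-encoded subunits 63 had a positive difference, with a median log2 of 0.05, and Ndufb3 of complex I was the single call (log2 0.12, SE 0.03, adjusted p = 0.0105). Of 13 mitochondrially encoded genes 12 had a negative difference, with a median log2 of -0.16. By edgeR and by DESeq2 0 of them were called, with 7 at an unadjusted p under 0.05 and a smallest adjusted p of 0.0616. Mb, the oxygen store myoglobin, was at 2171 ± 537.4 against 1962 ± 510 CPM and was not called (log2 0.16, SE 0.07, adjusted p = 0.207), and 0 of 12 genes of oxygen storage and vessels were called by edgeR or DESeq2, with 1 at an unadjusted p under 0.05.

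**Figure D4:**
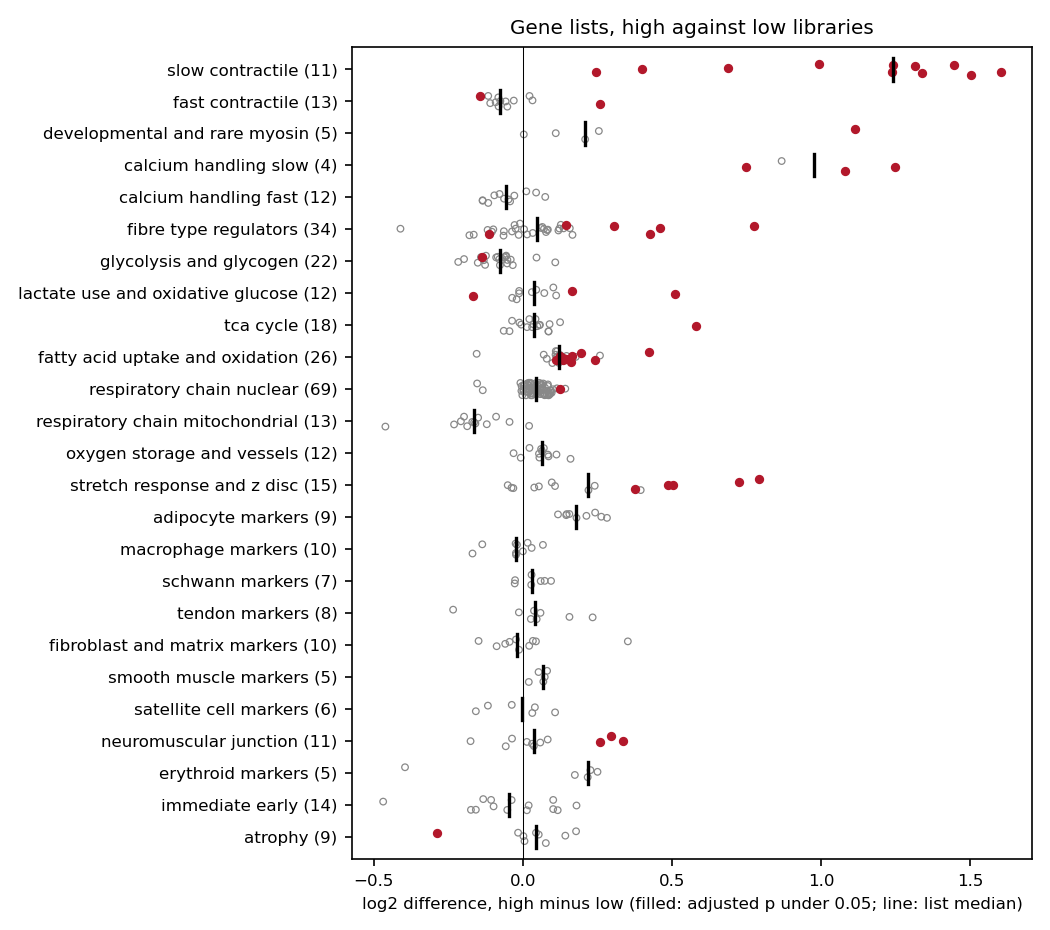
Log2 difference between high and low libraries (x axis) for each tested gene of each list (rows, with the number of genes), filled where the adjusted p is under 0.05, with a line at the list median. Slow contractile genes lie between 0.25 and 1.604, and most genes of the other lists within 0.25 of 0.

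Genes of the Z-disc and of the response to stretch included larger differences. Of 15 tested, 5 were called higher and 0 lower (2.21% and 2.33% over all genes tested), with a median log2 of 0.22. Ankrd2, a stretch-induced ankyrin repeat protein, was at 105.6 ± 56.4 against 61.4 ± 23.9 CPM (log2 0.79, SE 0.13, adjusted p = 8.94e-06). The LIM-domain gene Fhl2 rose (log2 0.73, SE 0.12, adjusted p = 8.91e-06), as did Csrp3, the muscle LIM protein (log2 0.50, SE 0.15, adjusted p = 0.0314), Lmod2, a regulator of thin filament length (log2 0.49, SE 0.10, adjusted p = 0.00123), and Fhl1 (log2 0.38, SE 0.08, adjusted p = 0.00227). Myh3, the embryonic myosin, was at 13.3 ± 9.64 against 6.26 ± 4.37 CPM (log2 1.11, SE 0.18, adjusted p = 2.79e-06) and was the single call among 5 developmental and rare myosin genes. At the neuromuscular junction, 3 of 11 genes were called higher (2.21% over all genes tested), namely the acetylcholine receptor subunit Chrna1, the acetylcholinesterase anchor Colq and the adhesion molecule Ncam1, with log2 differences of 0.26, 0.30 and 0.34. Of 9 atrophy genes the single call was Mstn, myostatin, at 62.5 ± 16.7 against 76.6 ± 23.4 CPM (log2 -0.29, SE 0.08, adjusted p = 0.0141).

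Markers of other cells did not pass the edgeR test. The lists for adipocytes, macrophages, Schwann cells, tendon, fibroblasts and matrix, smooth muscle, satellite cells and erythroid cells held 60 genes in all, of which 0 were called by edgeR (smallest adjusted p = 0.0686, 3 at an unadjusted p under 0.05) and 1 by DESeq2. Over all 16757 genes tested edgeR called 4.54%, with 3040 at an unadjusted p under 0.05, and DESeq2 called 5.81%. The adipocyte list, with 9 of 9 genes at a positive difference and a median log2 of 0.18, had a summed level of 143.7 to 933.6 CPM (median 291.5) in the high and 123.5 to 1009 CPM (median 276.99) in the low libraries. Erythroid genes summed to 67.8 to 2753 CPM (median 136.6) against 36.3 to 290.6 CPM (median 142.7). Macrophage, Schwann cell, tendon and satellite cell sums had medians of 107.9, 124.4, 356.6 and 60.1 CPM in the high libraries and 109.1, 115.6, 338.8 and 60.0 CPM in the low. With scores of cell types as covariates, 510 genes were called (3.04%), against 4.54% in the main comparison. Of these, 174 were lower (1.04%, against 2.33% in the main comparison). The share called higher was 2.01% against 2.21%, so that the falls were reduced more than the rises. Macrophage, Schwann cell, tendon, fibroblast, smooth muscle, satellite cell and erythroid lists had median log2 differences of -0.02, 0.03, 0.04, -0.02, 0.07, -0.0025 and 0.22. Of 14 immediate-early genes 0 were called by edgeR or DESeq2, 0 at an unadjusted p under 0.05.

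The falls differed from the rises in several measured ways. Their 12 named examples, called, expressed at a mean log2 CPM of at least 1 and lower in all 10 groups, had log2 differences from -0.27 to -0.18. The largest was Zfp367, a zinc finger gene, at 22.6 ± 3.23 against 27.4 ± 7.45 CPM (log2 -0.27, SE 0.06, adjusted p = 0.00203). Homer1, a scaffold of calcium signalling, gave 105.1 ± 23.2 against 122.2 ± 27.8 CPM (log2 -0.22, SE 0.06, adjusted p = 0.0214), Eya4, a transcriptional cofactor, 32.4 ± 7.23 against 37.4 ± 9.24 CPM (log2 -0.20, SE 0.06, adjusted p = 0.0323), and Kpna3, a nuclear import receptor, 168.6 ± 18.006 against 191.2 ± 34.3 CPM (log2 -0.18, SE 0.04, adjusted p = 0.00243). Genes called lower had a median exon GC content of 41.6% and exon length of 6.10 kb, against 52.7% and 4.20 kb for those called higher and 49.4% and 3.99 kb for all tested. With the GC and length slopes of each library as covariates, 34 of the 390 falls stayed called in the same direction, against 197 of the rises and 65 of the 80 rises of at least 1.5-fold. None of the 12 named falls stayed called in that fit, and all of the 12 named rises did. The part of base composition in the falls was not tested further.

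The middle libraries were ranked with the others but were not among the high or low ones, and they were fitted on their own. There, each gene was fitted against Myh7 within sex and generation, over a narrower range of Myh7. A rise with Myh7 was called for 72 of the 16757 genes (0.43%) and a fall for 34 (0.203%). Tnnc1 had a slope of 0.94 log2 units per unit of Myh7 (SE 0.03, adjusted p = 1.34e-106), Tnni1 one of 0.92 (SE 0.03, adjusted p = 2.45e-91), and Tpm3 one of 0.86 (SE 0.03, adjusted p = 4.63e-84). Atp2a2 had 0.70 (SE 0.03, adjusted p = 1.32e-59), Strit1 0.81 (SE 0.08, adjusted p = 2.8e-20), Prox1 0.42 (SE 0.06, adjusted p = 1.4e-07) and Idh2 0.22 (SE 0.05, adjusted p = 0.000371). Of the 11 slow contractile genes 10 were called, Mybpc1 being the exception (slope 0.13, SE 0.05, adjusted p = 0.321). Ldhb (slope 0.18, SE 0.05, adjusted p = 0.103) did not pass, and 0 of the 26 fatty acid genes did by edgeR, with 2 at an unadjusted p under 0.05.

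Of the rises between high and low, 93.3% had the same direction in the middle libraries and 67 genes were called there (18.1%). Of the 80 rises of at least 1.5-fold these numbers were 79 and 42. Of the 390 falls, 68.2% had the same direction and 0 were called by edgeR, where 0.203% of all genes tested had a called fall, so that 0 is near the background. Over all genes tested, 55.0% had the same sign in both. As a description over the middle libraries, centred within groups, the correlation with Myh7 was 0.891 for Tnnc1, 0.838 for Tnni1, 0.819 for Tpm3, 0.799 for Tnnt1 and 0.754 for Myl2, and -0.00447 for the median gene. These genes share each library's depth and scaling.

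**Figure D5:**
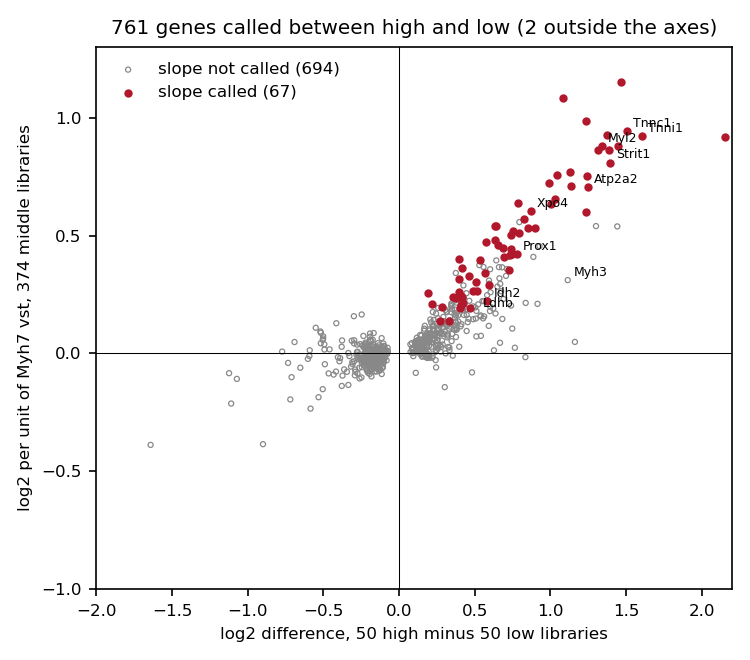
Log2 difference between high and low libraries (x axis) against the slope on Myh7 in the middle libraries (y axis, log2 units per unit of Myh7) for the 761 genes called between high and low, of which 2 lie outside the axes. Filled points, 67 in all, were also called in the middle libraries, and all of them are rises.

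Tnni1 was called higher in both sexes. In the 25 high against the 25 low female libraries, 2.60% of genes were called, 1.05% higher (176 genes) and 1.55% lower. In the 25 high against the 25 low male libraries, 0.645% were called (108 genes). Of all genes tested in males, 0.531% were higher (89 genes) and 0.113% lower (19 genes). Tnni1 differed by a log2 of 1.44 in females and 1.77 in males, and the difference between these did not pass the threshold (0.32, adjusted p = 0.394). In females Tnni1 was 135.96 to 343.996 CPM in the high and 19.9 to 102.5 CPM in the low libraries, and in males 90.1 to 313.7 and 25.6 to 57.8 CPM. Between the sexes 2 genes differed in response by edgeR (0.0119%), with 1831 genes (10.9%) at an unadjusted p under 0.05 over all picked libraries. Without the libraries in doubt neither of them passed.

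Within single generations of 10 high and 10 low libraries, 13 to 35 genes were called, and Tnni1 was among them in each, with log2 differences of 1.42 to 1.80. Within runs of library numbers, 9, 13, 0, 7 and 27 genes were called. In the run with 0 calls, which had 8 high and 9 low libraries, 987 genes were at an unadjusted p under 0.05 and the log2 difference of Tnni1 was 1.81.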

How the data were processed

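Polyadenylated RNA of gastrocnemius was sequenced as paired reads of 100 bases. According to the study's methods, the authors aligned the mates as single reads to an 8-founder transcriptome and deposited expected counts per gene from EMASE/GBRS, which need not be whole, and a variance-stabilised score made with DESeq2. The build was GRCm38 per the labels. The alignment settings for strand were not given in the sources used here.

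Of 474 libraries, 50 high and 50 low were picked and 374 were middle. They were picked on the deposited scale. Expected counts were rounded and fitted with edgeR 4.0.16 (quasi-likelihood F-test, TMM scaling over all libraries, minimum count 10, group as covariate), with Benjamini-Hochberg adjustment over 16757 genes and a threshold of 0.05. Myh7, Myh6 and Mhrt were left out. CPM used TMM-scaled library sizes. The middle-library slopes and the difference between sexes used the same model. Replicates were separate animals. Depth was 35.9 M to 165.7 M (M, mega) counts per library. Gene lengths and GC came from GENCODE M21, promoters and microRNAs from RefSeq. Alternatives used limma 3.58.1 and DESeq2 1.42.0 among others. The fit of high against low was tested on simulated data.

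Named genes were taken from a fixed list and from the 12 largest rises and 12 largest falls that were called, had a mean log2 CPM of at least 1, a name that was no provisional identifier, and the same direction in all 10 groups. Members and lists were chosen with earlier results of these data known. The authors' other columns were gene annotation, and every sample column was matched to a library by its title. The GC and length slopes were added after seeing the data.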

Additional observations from a re-analysis of the deposited data

Results flagged for a closer look

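Within the sets of 5 libraries, the Myh7 value of a library stood apart from the rest of its set in 7 of 20 cases by Dixon's criterion, which flags about 1 in 20 by chance in unselected samples. The sets were taken from the ends of a ranking, so that a wide last gap is no measure of error. Among the high sets these were values of 17.91 in females of generation 17, 18.47 in females of generation 19, 17.68 in females of generation 21 and 17.14 in males of generation 21. Among the low sets they were 16.23, 15.79 and 14.07 in females of generations 17, 18 and 23.

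The response to the high against low contrast differed between the sexes for 2 genes of the Y chromosome, Gm21244 (male minus female log2 -5.68, adjusted p = 0.00865) and Gm37158 (-7.96, adjusted p = 0.00865). Both were at 0 CPM in all low female libraries and in the median high female library, and reached 2.15 and 9.20 CPM in 1 or more high female libraries. Without the libraries in doubt for their sex the differences were -0.10 and -0.04 (adjusted p = 1 for both).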

How the results depend on the processing

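Of 33 called named genes, 17 were called under every one of 25 alternatives that gave a value, among them Tnni1, Tnnc1, Tnnt1, Myl2, Myl3, Tpm3, Atp2a2, Prox1 and Ldhb. Over all named genes and alternatives, 1195 values kept direction and side of the threshold, 82 lost the call, 11 gained it and 10 turned direction. The 10 belonged to genes not called in the main comparison. Slc2a4 became 0.00894 (total count alone), 0.0033 (run of library numbers), 0.0178 (3 highest and lowest) and 0.0197 (ranked by Tnni1 and Tnnt1). Ppargc1a became 0.0733 with 3 highest and lowest and 0.0546 with the GC and length slopes. Myh1 became -0.0280 when ranked by Tnni1 and Tnnt1. Leaving out each sex-by-generation group gave -0.0129 to 0.0649 for Myh1, negative without females of generation 19 or 23, and -0.0486 to 0.0043 for Tnni2, positive without males of generation 18.

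As a percent of the genes tested in the main comparison, the calls of 4.54% became 2.82% with the run of library numbers, 2.94% with 3 highest and lowest, 2.62% when ranked by Tnni1 and Tnnt1 and 1.74% with the GC and length slopes. The rises of 2.21% became 1.37% with those slopes. The falls of 2.33% became 0.812% with total count alone, 1.00% with the run of library numbers, 1.04% with cell type scores, 1.28% with 3 highest and lowest, 0.788% when ranked by Tnni1 and Tnnt1 and 0.364% with the GC and length slopes. The calls of at least 1.5-fold, 0.573%, became 0.143% with limma on the deposited scale and 0.298% with 10 highest and lowest. Leaving out each sex-by-generation group gave 1.81% to 6.59% calls, 1.23% to 2.72% rises, 0.585% to 3.87% falls and 0.370% to 0.633% of at least 1.5-fold, lowest without females of generation 23 and highest without males of generation 21. The falls also moved by over 1.5 times without females of generation 17 (1.19%), 19 (1.33%) or 21 (0.901%) and males of generation 17 (1.34%) or 23 (1.21%). The sex differences, 0.0119%, became 0 with limma on the deposited scale and 0 without the libraries in doubt. The slopes called in the middle libraries, 0.633%, became 0.412% with limma on the deposited scale. By medians, total count differed by 3.79 M in the other direction (adjusted p = 0.434), and the share of the 10 most abundant genes (-0.437 points, adjusted p = 0.221) and the GC slope (0.0252, adjusted p = 0.253) lost their calls. Causes of these changes were not tested. No paired analysis was possible because each library was a separate animal whose number occurs in a single group.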

Other observations

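The following genes were noticed after their values were seen. Xpo4, a nuclear transport receptor on chromosome 14 (57577521 to 57665430), was at 25.7 against 14.04 CPM (log2 0.87, SE 0.06, adjusted p = 2.03e-23), and its slope on Myh7 in the middle libraries was 0.60 (adjusted p = 1.74e-30). It was the strongest of the 7 genes called among 106 tested within 4 Mb of Myh7 (6.60%, against 4.54% over all genes tested), 6 of which were higher.

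Some low genes rose by more than the troponins. Slc22a2, an organic cation transporter, was at 0.626 against 0.143 CPM (log2 2.15, SE 0.27, adjusted p = 2.22e-09), and Tecrl, a reductase-like gene of heart and muscle, at 1.72 against 0.453 CPM (log2 2.11, SE 0.26, adjusted p = 1.22e-09). Tecrl also rose with Myh7 in the middle libraries (slope 1.57, adjusted p = 8.63e-09). Myom3, the M-band myomesin of slow and IIA fibres, was at 156.8 against 98.4 CPM (log2 0.69, SE 0.10, adjusted p = 2.13e-07).

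In the middle libraries, the 34 genes that fell with Myh7 included Krt10 (slope -1.37, adjusted p = 1.86e-05), Dsp (-2.85, adjusted p = 1.89e-05), Col17a1 (-1.51, adjusted p = 0.000339) and Krtdap (-1.47, adjusted p = 0.000454). Between high and low libraries the same genes did not pass the threshold, with adjusted p of 0.807, 0.492, 0.814 and 0.962.

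Of the genes whose names begin with Zfp and a digit, a zinc finger group, 24 were called lower (6.47%) and 4 higher (1.08%) in the high libraries, against 2.33% and 2.21% over all genes tested, and 2 were called lower with the GC and length slopes as covariates.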
